A study of Mus musculus with 6 samples.

Results

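The genes described here bring fatty acids into cells. They are the 6 members of the Slc27a family of fatty acid transport proteins, the fatty acid receptor Cd36, lipoprotein lipase (Lpl), its capillary carrier Gpihbp1 and the acyl-CoA synthetase Acsl1. They were chosen by name, and every probe set that the platform annotation gives to one of these names was taken. Of the 10 genes, 9 were measured, each by 1 probe set, among 19937 genes in all, and Acsl1 was not analysed here. The RNA came from the inguinal depot of white fat, which lies under the skin, of male C57BL/6 mice aged 5 weeks. Mice lacking the transcription factor Atf7 (ATF7 KO, called KO, n = 3) were set against wild-type littermates (WT, n = 3). Both were bred from Atf7 heterozygotes and kept specific-pathogen-free at controlled temperature, and each array measured 1 mouse. The labels name no promoter, Cre line or cell type for the deletion and do not give the part of the gene that it removes. The series title puts the study's question as the role of Atf7 in fat cell differentiation and in thermogenic genes.

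Fat cells obtain most of their fatty acids from the triglyceride of circulating lipoproteins. Lipoprotein lipase, carried across the capillary wall by Gpihbp1, releases the fatty acids, and Cd36 helps them through the plasma membrane. Acyl-CoA synthetases, to which the Slc27a proteins also belong, then trap them by joining them to coenzyme A. Slc27a1 and Slc27a4 are the family members usually described in white fat, while Slc27a2 is best known from liver and kidney, Slc27a5 from liver and Slc27a6 from heart.

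The stretches just upstream of Slc27a2 and Slc27a4 are shown because these paralogs gave the widest and 1 of the narrowest differences between KO and WT in the family. Each is the 250 bases before the transcription start in RefSeq (GRCm38.p6), 5′ to 3′ on the forward strand, which is the strand of both genes. That of Slc27a2 is chr2:126552774-126553023 and that of Slc27a4 is chr2:29802384-29802633. Capitals mark TGACCT, which reads AGGTCA on the opposite strand and is the hexamer that PPAR and other nuclear receptors bind in repeated copies.
Slc27a2: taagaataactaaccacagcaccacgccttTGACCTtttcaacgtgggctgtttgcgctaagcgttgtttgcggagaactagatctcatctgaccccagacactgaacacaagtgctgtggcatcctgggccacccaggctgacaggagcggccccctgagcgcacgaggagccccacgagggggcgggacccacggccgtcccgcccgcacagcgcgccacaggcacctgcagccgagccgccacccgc
Slc27a4: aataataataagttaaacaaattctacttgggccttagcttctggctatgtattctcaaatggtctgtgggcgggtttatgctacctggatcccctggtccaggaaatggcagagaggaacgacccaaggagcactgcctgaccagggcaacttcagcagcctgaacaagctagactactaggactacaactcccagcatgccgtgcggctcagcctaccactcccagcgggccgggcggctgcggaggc

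RefSeq windows of this length were used for 6 of the 10 genes, namely Slc27a1, Slc27a2, Slc27a3, Slc27a4, Cd36 and Acsl1, with 9 windows between them. Both strands were searched for 4 motifs. The single hexamer AGGTCA stood in 2 of the 9 windows, those of Slc27a2, at 220 to 215 bases before the start, and of Cd36, at 228 to 223 bases before it, and in 14.0% of all 32851 windows of this length. Its direct repeat with 1 base between the copies, AGGTCANAGGTCA, the arrangement bound by PPAR with RXR, stood in 0 of the 9 and in 0.0335% of all. The cAMP response element TGACGTCA, which ATF and CREB family proteins bind, stood in 0 of the 9 windows and in 1.55% of all. Its core TGACG, which is part of that element, stood in 0 of the 9 and in 17.8% of all. A match describes letters in this window and is not a measured site.

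Every array carried the messages of fat cells, with the adipokine gene Adipoq between 12.24 and 12.68 in KO and between 12.37 and 12.52 in WT on the log2 scale of the deposited values. Atf7 probe set 10433032 was at a mean of 6.41 ± 0.17 in KO arrays, against 9.07 ± 0.12 in WT arrays (SD, n = 3 each), so KO minus WT was -2.66, with a limma adjusted p of 0.00658 over all probe sets. Leaving out WT replicate 1 gave an adjusted p of 0.0745 (difference -2.72), and leaving out WT replicate 3 gave 0.147 (difference -2.66). Probe set 10433034 of the same gene averaged 9.25 ± 0.16 in KO arrays and 9.42 ± 0.09 in WT arrays (adjusted p 0.730). KO replicate 3 stood apart, with correlations of 0.969 to 0.981 to the other arrays across probe sets, against 0.984 to 0.990 among the other 5. B and T cell markers were low in the same array. Their score, the mean of 9 of 10 B cell and 11 of 12 T cell markers after each gene was centred on its own mean, was -0.12, 0.67 and -2.62 in KO replicates 1, 2 and 3, against a range of 0.54 to 0.83 in WT. For T cell markers the lower values were not confined to KO replicate 3. All KO arrays lay below all WT arrays in 6 of the 11 T cell and 0 of the 9 B cell markers, against 5.97% of all genes. By limma 4 of the 11 and 0 of the 9 were lower at an unadjusted p under 0.05, against 2.48% of all genes. In bulk tissue, fewer cells of a type and less RNA per cell cannot be told apart.

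Among the 9 genes, Slc27a2 differed by far the most between the groups, and the 95% intervals of the other 8 included 0. Some of these were wide, such as 0.893 to 1.65 in folds for Gpihbp1. Slc27a2 was 3.41-fold higher in KO (95% interval of limma 2.19 to 5.30), while the differences of the other 8 genes lay between -0.12 and 0.28 on the log2 scale. By limma 0 of the 9 genes passed an adjusted p under 0.05, as did 0 of all genes (0% of 19937). Atf7 entered that count by its brighter probe set, 10433034, and not by 10433032. At an unadjusted p under 0.05 there was 1 gene of the 9, Slc27a2, with KO higher, where 7.47% of all genes (1489) passed, 4.99% with KO higher and 2.48% with KO lower. The groups did not overlap in 1 of the 9 genes, again Slc27a2, against 13.9% of all genes, 7.96% with KO above and 5.97% with KO below. The median log2 difference of the 9 genes was 0.040, beside 0.012 over all genes.

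**Figure D1:**
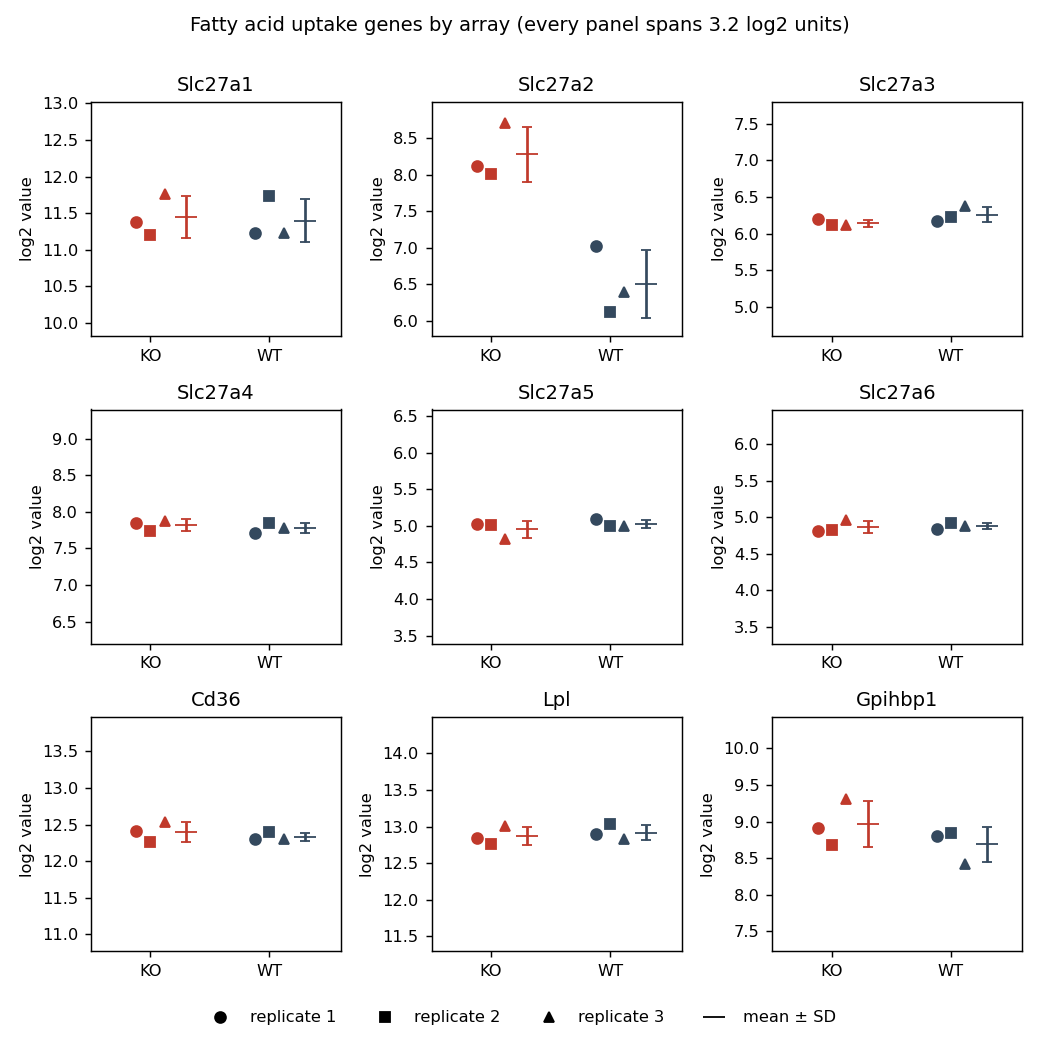
Deposited log2 value of each measured fatty acid uptake gene on each array, with KO on the left and WT on the right of each panel. Symbols give the replicate, the bar beside them the mean ± SD (n = 3), and all panels span the same log2 range. Slc27a2 has all KO arrays (8.01 to 8.71) above all WT arrays (6.12 to 7.02), and the groups of the other 8 genes overlap.

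Slc27a2 encodes a fatty acid transport protein that is also a very long-chain acyl-CoA synthetase. Its log2 values were 8.12, 8.01 and 8.71 in KO replicates 1, 2 and 3, against 7.02, 6.12 and 6.39 in WT replicates 1, 2 and 3. KO replicate 3 was the highest array and WT replicate 2 the lowest, and 0.99 log2 units separated the lowest KO array from the highest WT array. The KO mean was 8.28 ± 0.37, against a WT mean of 6.51 ± 0.47 (SD, n = 3 each), and the difference was 1.77 (SE 0.27, unadjusted p 0.000297). The limma adjusted p over 19937 genes was 0.494, so the difference did not pass. In size it ranked 3 of 19937 among genes higher in KO, behind Ucp1, the uncoupling protein of heat-producing fat, and Itih4, which encodes a plasma protein of the inter-alpha-trypsin inhibitor family. Among all genes the mean of Slc27a2 stood at percentile 75.3 in KO arrays and at percentile 44.0 in WT arrays, so the WT signal was itself below the median.

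The difference of Slc27a2 was 1.56 without KO replicate 3, the array lowest in the lymphocyte score. Leaving out WT replicate 2 gave 1.57 and leaving out WT replicate 1 gave 2.03, and the adjusted p over the 6 such fits ran from 0.174 to 0.852. Fits with a covariate gave 1.48 for the lymphocyte score and 1.38 for the capillary endothelial score. Neither the call nor the direction changed in these fits. A score of 11 of 12 measured beige and brown fat markers had, like Slc27a2, every KO array above every WT array. It was 0.42, 0.24 and 0.75 in KO replicates 1, 2 and 3, against -0.28, -0.43 and -0.69 in WT replicates 1, 2 and 3. KO replicate 3 was the highest array in both. The lowest was WT replicate 3 for the score and WT replicate 2 for Slc27a2. Of these 11 markers, 7 had an unadjusted p under 0.05 with KO higher and 0 with KO lower, against 4.99% and 2.48% of all genes. KO lay above WT without overlap in 8 and below in 1, Elovl3, against 7.96% and 5.97% of all genes. The 11 include Pparg, the master factor of fat cells, whose groups overlapped and which is also on the wider list described below. The part of these markers in the difference of Slc27a2 was not tested.

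The family members usually described in white fat did not share that difference. Slc27a1, an insulin-responsive transporter of fat and muscle, was at 11.38, 11.20 and 11.76 in KO replicates 1, 2 and 3, against 11.22, 11.74 and 11.23 in WT replicates 1, 2 and 3. The highest KO array and the highest WT array were nearly level, and the groups overlapped along most of their range. Its difference was 0.052 (95% interval -0.41 to 0.51, adjusted p 0.947 by limma), so the interval of the fold ran from 0.755 to 1.43. Skeletal muscle, which also uses Slc27a1, was unevenly present. The score of 12 muscle genes was 1.39, -1.16 and -1.35 in KO replicates 1, 2 and 3 and -1.29, 2.001 and 0.41 in WT replicates 1, 2 and 3, so among the WT arrays replicate 2 was highest in both measures, while KO replicate 3 had the lowest muscle score and the highest Slc27a1. With the muscle score as a covariate the difference was 0.097, and with the lymphocyte score it was -0.19.

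Slc27a4, a long-chain acyl-CoA synthetase of the endoplasmic reticulum that is abundant in gut and skin, varied little over the 6 arrays. It was at 7.85, 7.73 and 7.87 in KO replicates 1, 2 and 3, against 7.71, 7.85 and 7.77 in WT replicates 1, 2 and 3. Highest and lowest arrays of the groups interleaved within 0.16 log2 units. The difference was 0.040 (95% interval -0.17 to 0.25, adjusted p 0.904 by limma), so a change beyond 0.889 to 1.19 times the WT level lay outside the interval.

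The contrast between Slc27a2 and these paralogs was measured within each array, where it cannot be moved by a shift of the whole array. The log2 value of Slc27a2 minus the mean of Slc27a1 and Slc27a4, centred over the 6 arrays, was 0.72, 0.76 and 1.10 in KO replicates 1, 2 and 3, against -0.23, -1.46 and -0.90 in WT replicates 1, 2 and 3. The groups did not overlap, and the WT arrays were more spread (SD 0.62) than the KO arrays (SD 0.21). The groups differed by 1.72, or 3.30-fold, with an exact two-sided permutation p of 0.1, the smallest that 3 arrays against 3 can give, so this test cannot reach 0.05. Against Slc27a1 alone the difference was 1.72, against Slc27a4 alone 1.73 and against the mean of the other 5 family members 1.79. Over fits that left out 1 array it ran from 1.42 (WT replicate 2 out) to 2.04 (WT replicate 1 out), and it was 1.46 to 1.59 with each of 3 marker scores as a covariate.

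**Figure D2:**
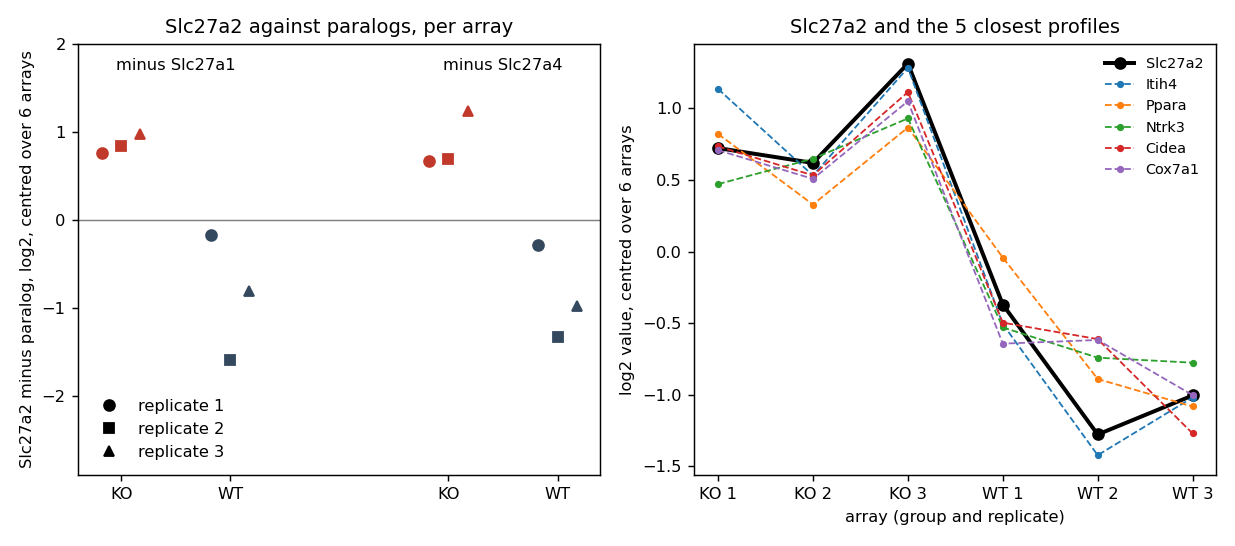
Left, the log2 value of Slc27a2 minus that of Slc27a1 or Slc27a4 on each array, centred over the 6 arrays, with KO left of WT and symbols for the replicate. Right, centred log2 values of Slc27a2 (thick line) and of the 5 genes with the closest profile on the 6 arrays, where lines only join the points of 1 gene. The groups do not overlap in either, and WT replicate 1 is the nearest WT array to KO for Slc27a2, at -0.37 in the right panel.

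The remaining family members had low array signals. Slc27a3, whose part in uptake is less settled, was at 6.19, 6.11 and 6.12 in KO replicates 1, 2 and 3, against 6.17, 6.23 and 6.37 in WT replicates 1, 2 and 3. Of the KO arrays, only replicate 1 overlapped the WT range, and the difference was -0.12 (95% interval -0.33 to 0.10, adjusted p 0.698 by limma). Slc27a5, which in liver joins bile acids to coenzyme A, lay between 4.82 and 5.03 in KO and between 4.99 and 5.09 in WT, a difference of -0.075 (95% interval -0.30 to 0.15). Slc27a6, the heart member, lay between 4.81 and 4.95 in KO and between 4.84 and 4.92 in WT, a difference of -0.015 (95% interval -0.22 to 0.19). The probe sets of these genes stood at percentiles 38.6, 17.4 and 15.6 of all genes by mean level, where an array shows a change in RNA only weakly.

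The genes that release and admit lipoprotein fatty acids were bright and close in both groups. Lpl, the lipase that frees fatty acids from triglyceride, was at 12.84, 12.77 and 13.01 in KO replicates 1, 2 and 3, against 12.89, 13.03 and 12.83 in WT replicates 1, 2 and 3. The groups overlapped, with the highest array in WT and the lowest in KO. The difference was -0.045 (95% interval -0.29 to 0.20, adjusted p 0.909 by limma). Cd36, the membrane receptor for fatty acids, was at 12.41, 12.26 and 12.53 in KO replicates 1, 2 and 3, against 12.31, 12.40 and 12.30 in WT replicates 1, 2 and 3. The KO arrays reached further both up and down than the WT arrays, and the difference was 0.065 (95% interval -0.17 to 0.30, adjusted p 0.850 by limma). In folds, the intervals ran from 0.817 to 1.15 for Lpl and from 0.890 to 1.23 for Cd36. Such bright probe sets can be near the top of an array's range, where changes are compressed, and this was not tested.

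Gpihbp1, the endothelial protein that carries lipoprotein lipase to the capillary lumen, had the next largest difference after Slc27a2. It was at 8.92, 8.68 and 9.30 in KO replicates 1, 2 and 3, against 8.81, 8.84 and 8.42 in WT replicates 1, 2 and 3. KO replicate 2 lay below WT replicates 1 and 2, so the groups overlapped. The difference was 0.28 (95% interval -0.16 to 0.72, adjusted p 0.662 by limma), and leaving out KO replicate 3, WT replicate 3 or KO replicate 2 gave 0.11, 0.14 and 0.42. A score of 12 capillary endothelial markers ran 0.16, 0.004 and 0.19 in KO replicates 1, 2 and 3, against 0.021, -0.069 and -0.31 in WT replicates 1, 2 and 3. Gpihbp1 and this score were both highest in KO replicate 3 and lowest in WT replicate 3. With the score as a covariate the difference was -0.12 and with the lymphocyte score 0.015, so its direction and size depended on these choices.

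**Figure D3:**
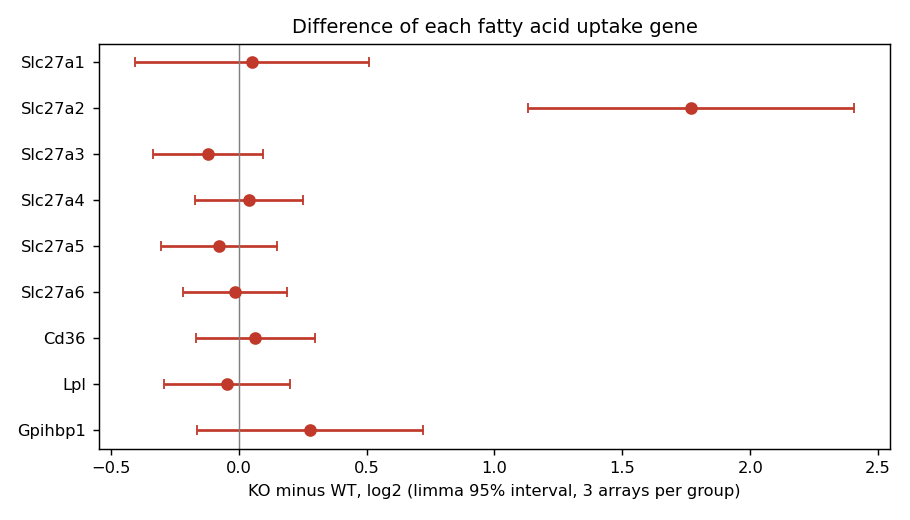
Log2 difference, KO minus WT, of each measured fatty acid uptake gene (points) with the 95% interval of limma (bars), from 3 arrays per group. The interval of Slc27a2 runs from 1.13 to 2.41 and those of the other 8 genes include 0.

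The order of the KO arrays was shared by 6 of the 9 genes, with KO replicate 3 highest and KO replicate 2 lowest, an order found in 29.2% of all genes. KO replicate 3 was the highest of the 3 KO arrays for 7 of the 9 genes, namely Slc27a1, Slc27a2, Slc27a4, Slc27a6, Cd36, Lpl and Gpihbp1, beside 44.4% of all genes. KO replicate 2 was the lowest of the 3 for 7 of the 9, beside 41.9% of all genes, and the exceptions were Slc27a5 and Slc27a6. The white adipocyte score, over 11 of 12 markers, ran the same way at 0.045, -0.15 and 0.19 in KO replicates 1, 2 and 3, against -0.038, 0.093 and -0.14 in WT replicates 1, 2 and 3. Its part in the order of the uptake genes was not tested.

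The 5 genes whose profile over the 6 arrays was closest to that of Slc27a2, by the root mean square difference of centred log2 values, were Itih4 (0.19), the nuclear receptor gene Ppara (0.30), the neurotrophin receptor gene Ntrk3 (0.31), the lipid droplet gene Cidea (0.31) and the cytochrome c oxidase subunit gene Cox7a1 (0.31). Their log2 differences between KO and WT were 1.97, 1.34, 1.37, 1.59 and 1.51. Genes with a large difference of the same sign come out as close by construction. Within the WT group, Itih4 was highest in replicate 1 at 7.27 and lowest in replicate 2 at 6.35, as Slc27a2 was. The other 4, Cidea, Cox7a1, Ntrk3 and Ppara, were lowest in WT replicate 3. The WT arrays entered the choice of these 5 genes, so a shared order there is part of that choice.

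A wider list of 75 genes was set beside the uptake genes, and 69 were measured. It holds other acyl-CoA synthetases, regulators of lipoprotein lipase with lipoprotein receptors, and caveola and membrane genes. It also holds endothelial transport signals and transcription factors, so many of its genes do not act on fatty acids at the cell border. At an unadjusted p under 0.05 there were 10 higher and 1 lower in KO, against 4.99% and 2.48% of all genes, and 0 passed adjustment over all genes (smallest adjusted p 0.622). Signs were positive in 56 of the 69, with a median difference of 0.13, where 10575 of 19937 genes were positive with a median of 0.012. In all, KO lay above WT without overlap in 13 and below in 2, against 7.96% and 5.97% of all genes. The 11 at an unadjusted p under 0.05 became 18 without KO replicate 2, 6 in the fit with the lymphocyte score and 5 with the capillary endothelial score as a covariate, the last chosen for this count after seeing the data. Over all genes, the 1489 became 3757, 777 and 239 in the same fits.

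**Figure D4:**
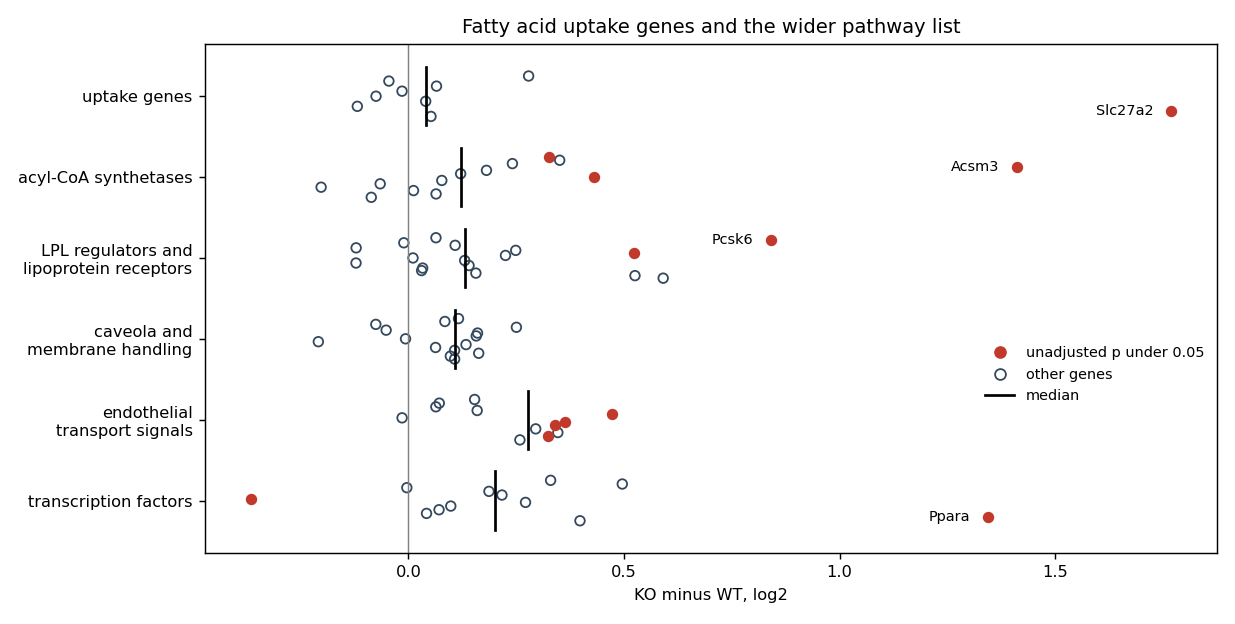
Log2 difference, KO minus WT, of the fatty acid uptake genes and of the genes of each role of the wider list, 1 circle per gene. Filled circles have an unadjusted p under 0.05, and vertical bars are medians, which run from 0.040 for the uptake genes to 0.28 for the endothelial transport signals.

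Of the acyl-CoA synthetases outside the Slc27a family 3 of 13 had an unadjusted p under 0.05 with KO higher and 0 with KO lower. Over all genes these shares were 4.99% and 2.48%. Acsm3, a mitochondrial medium-chain enzyme, was at 9.39, 8.83 and 9.95 in KO replicates 1, 2 and 3, against 8.22, 8.06 and 7.65 in WT replicates 1, 2 and 3, which is 2.66-fold higher (log2 1.41, SE 0.28). No WT array reached the lowest KO array. Acss2, which makes acetyl-CoA from acetate, was 1.35-fold and Acsf3, the mitochondrial malonyl-CoA synthetase, 1.25-fold higher. The long-chain enzymes Acsl4, Acsl5 and Acsl6, close in function to Slc27a proteins, differed by -0.086, 0.064 and 0.012. Each of these genes had an adjusted p of 0.622 or more by limma.

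Among regulators of lipoprotein lipase and lipoprotein receptors 2 of 17 genes were higher and 0 lower at an unadjusted p under 0.05. Over all genes, 4.99% were higher and 2.48% lower. Pcsk6, a protease of the proprotein convertase family that can cleave lipases, averaged 9.83 ± 0.22 in KO arrays and 8.99 ± 0.27 in WT arrays (SD, n = 3 each), 1.79-fold higher. Vldlr, the receptor for very low-density lipoprotein, was 1.44-fold higher, with no overlap between groups in both genes. Angptl4 and Angptl8, secreted inhibitors that adjust lipase activity to feeding, differed by 0.59 (SE 0.42) and 0.53 (SE 0.39) with overlapping groups. Lmf1 and Sel1l, which help the lipase fold and leave the endoplasmic reticulum, differed by 0.16 and 0.033.

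Caveola and membrane genes had 0 of 15 at an unadjusted p under 0.05, against 7.47% of all genes. KO lay above WT without overlap in 3 of the 15, Lypla1 among them, and below in 1, Got2. Over all genes these shares were 7.96% and 5.97%. The smallest p-values belonged to Got2, a mitochondrial aminotransferase also described as a fatty acid binding protein of the plasma membrane (log2 -0.21, SE 0.090), and to Lypla1, a thioesterase that removes palmitate from proteins (log2 0.25, SE 0.12). Cav1, the main caveola protein, which holds Cd36 at the surface, differed by 0.11 and Cavin1 by 0.16. The adjusted p of each was 0.622 or more by limma.

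Of the endothelial transport signals 4 of 12 were higher and 0 lower at an unadjusted p under 0.05, against 4.99% and 2.48% of all genes. Tcf15 and Meox2, transcription factors that in mouse heart and muscle endothelium act together on fatty acid uptake genes, differed by 0.36 (SE 0.11) and 0.34 (SE 0.12), with no overlap between groups. The apelin receptor gene Aplnr differed by 0.47 and Flt1, a receptor for VEGF-B, by 0.32, and the groups of Flt1 overlapped. Of the 12 capillary endothelial markers 11 were positive, with a median difference of 0.23. Over all genes 10575 of 19937 were positive, with a median of 0.012. The part of these markers in the differences of the endothelial transport signals was not tested.

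Of the transcription factors 1 of 12 was higher and 1 lower at an unadjusted p under 0.05, against 4.99% and 2.48% of all genes. Ppara, the receptor that turns on fatty acid use when fatty acids bind it, was at 9.44, 8.95 and 9.48 in KO replicates 1, 2 and 3, against 8.58, 7.73 and 7.54 in WT replicates 1, 2 and 3. The groups did not overlap, and KO was higher by 2.54-fold (log2 1.34, SE 0.28). Foxo1, a factor restrained by insulin, averaged 9.59 ± 0.063 in KO arrays and 9.95 ± 0.077 in WT arrays (SD, n = 3 each), and KO minus WT was -0.36 (SE 0.089). Pparg, the master factor of fat cells, which drives Cd36 and Lpl, differed by 0.40 (SE 0.20). The adjusted p was 0.622 for Ppara, Foxo1 and Pparg by limma.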

How the data were processed

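RNA from 6 mice was hybridised to Affymetrix arrays, 1 array per mouse. The deposited table holds log2 expression values for 34760 probe sets. RMA, affy and limma made these deposited log2 values, per the submitters' processing notes. Versions and genome build are not given in the sources used here. RMA makes arrays share nearly 1 distribution, so a shift common to most genes would not show. Array medians were 6.41 to 6.49. Depth has no meaning here, and the number of arrays limits precision.

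Sample titles gave the group and replicate number of each array. The platform annotation gave 1 symbol to 21640 probe sets, several to 1321 and none to 11799. A gene was its probe set with the highest mean. The gene test was limma 3.58.1 under R 4.3.3 (lmFit, eBayes, two-sided, Benjamini-Hochberg over 19937 genes, threshold 0.05), with no filter. The uptake genes' paralog contrast used an exact permutation test. In a simulated KO against WT comparison with 200 of 19937 genes changed, limma recovered 74.9% of log2 changes of 1 and 96.8% of 2. The simulation drew independent noise for each gene, with variances from limma's own fit and no outlying array. Its shares check the code and do not give the power in these data.

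The uptake genes and lists were chosen with earlier results of these data known. Named were all uptake genes, Atf7, per role of the wider list the genes at an unadjusted p under 0.05 or the 2 with the smallest p, and the 5 closest profiles to Slc27a2, among genes other than predicted ones, odorant or pheromone receptors and segments of antigen receptors. Acsl4, Acsl5, Acsl6, Angptl4, Angptl8, Lmf1, Sel1l, Cav1, Cavin1 and Pparg were named for their roles after their values were seen. Alternatives changed normalization, a filter on dim genes, probe sets, the variance model, a replicate block, marker score covariates and the arrays used.

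Of the other marker lists, macrophage genes had 8 of 10 positive (median 0.12, 0 at an unadjusted p under 0.05), and epithelial genes had 8 of 8 negative (median -0.57, 0 at an unadjusted p under 0.05), with WT replicate 2 highest in the epithelial score at 1.35. Over all 19937 genes, 10575 were positive and 9362 negative, and 7.47% had an unadjusted p under 0.05.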

Additional observations from a re-analysis of the deposited data

How the results depend on the processing

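In every alternative run 0 uptake genes passed an adjusted p under 0.05, where 9 were tested except for 6 with genes below the median level left out, which drops Slc27a3, Slc27a5 and Slc27a6, and Slc27a2 stayed the 1 gene at an unadjusted p under 0.05, with a difference between 1.38 and 2.03. Over all genes, 1 passed with the mean of all probe sets of a gene, and it was lower in KO. In the fit over all 34760 probe sets, 2 probe sets passed, lower in KO, and 10433032 of Atf7 was among them. The groups of 1 to 4 uptake genes did not overlap when each array was left out, where 19.2% to 38.3% of all genes did not; the count of 4 came without KO replicate 2, which also gave the 38.3%. When each array was left out, the wider list had 8 to 18 genes at an unadjusted p under 0.05, with 18 without KO replicate 2. That count was 6 with the lymphocyte score and 5 with the capillary endothelial score. Over all genes, the 1489 at an unadjusted p under 0.05 became 758 (without KO replicate 1) to 3757 (without KO replicate 2) without each array, 777, 944 and 239 with the lymphocyte, muscle and capillary endothelial scores, and 871 with genes below the median level left out. The Atf7 difference of probe set 10433032 was -2.72 to -2.56 without each array. With the replicate block it was -2.66 with an adjusted p of 0.0792. The labels do not say whether equal replicate numbers pair mice. Same-numbered arrays deviated from their group means with correlations of -0.14, -0.079 and -0.045 across genes. With 3 arrays per group, these values cannot settle whether mice were paired. With the block Slc27a2 differed by 1.77 (adjusted p 0.644), and the block changed no other call. Differences near 0 turned sign. With the lymphocyte score Slc27a1 was at -0.19, Slc27a4 at -0.012, Slc27a5 at 0.016 and Cd36 at -0.038. With the capillary endothelial score Slc27a1 was at -0.17, Cd36 at -0.028 and Gpihbp1 at -0.12, and after arrays were set to 1 common median Slc27a6 was at 0.012. Without each array Slc27a1 ran from -0.11 to 0.22, Slc27a6 from -0.060 to 0.010 and Lpl from -0.11 to 0.012. The causes were not tested. With 3 arrays per group and dim probe sets for Slc27a3, Slc27a5 and Slc27a6, small differences could not be resolved.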

Other observations

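The genes next to Slc27a2 on its chromosome, in RefSeq order (GRCm38.p6) and chosen for position without regard to their values, did not share its difference. Hdc, which makes histamine and is the next measured gene on one side, averaged 6.27 in KO arrays and 6.13 in WT arrays, with KO minus WT at 0.13 on the log2 scale (SE 0.12). Atp8b4, a putative phospholipid transporter and the next on the other side, averaged 6.80 in KO arrays and 7.33 in WT arrays, a difference of -0.53 (SE 0.27). The 3 measured genes on each side were Fgf7, Dtwd1, Atp8b4, Hdc, Gabpb1 and Usp8. Of these, 0 had an unadjusted p under 0.05 by limma, where 7.47% of all genes did, and 0 an adjusted p under 0.05. Their differences lay between -0.53 and 0.29. Usp8 had all KO arrays above all WT arrays (difference 0.11), as did 7.96% of all genes.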
